A study of Mus musculus with 3 samples.

Results

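The nuclear genes of oxidative phosphorylation were described from RNA sequencing of 3 leukaemias that arose in the thymus of Mb1-CreDPB mice. Members were the gene symbols that begin with Nduf, Uqcr, Cox4 to Cox8 or Atp5, the genes Sdha, Sdhb, Sdhc and Sdhd, and Cyc1 and Cycs. This rule, which uses names and no measured value, took 95 of the 24437 genes in the tables. The mice were of the C57BL/6 strain, and the libraries formed 1 group with no control sample analysed here, called leukaemia 1 (Thy_853), leukaemia 2 (Thy_854) and leukaemia 3 (Thy_857). In Mb1-CreDPB mice, Cre from the mb-1 (Cd79a) locus, which is active in B lineage cells, removes the floxed transcription factor gene Spi1 (PU.1) on a background without Spib. All 3 leukaemias thus come from this mouse genotype by label, and the alleles of the leukaemic cells were not checked here. Ages were not stated. The labels number each thymus but do not say that each came from a different mouse, so every SD below is over n = 3 libraries and may be partly technical. Levels are in FPKM, the fragments of a gene divided by its transcript's length and by the fragments of its library. A run of 3 values gives leukaemia 1, then 2, then 3.

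The respiratory chain passes electrons from NADH (complex I) or succinate (complex II) through ubiquinone to complex III, then through cytochrome c to complex IV, which reduces oxygen. Complexes I, III and IV pump protons across the inner mitochondrial membrane, and complex V, the ATP synthase, uses the proton gradient to make ATP. Dividing lymphocytes, leukaemic ones included, use this system for ATP and for regenerating the oxidised cofactors that nucleotide and aspartate synthesis need. Most subunits are encoded in the nucleus and the rest in the mitochondrial genome; the 13 mitochondrial-genome subunits were not analysed here. Nuclear subunit promoters are known for sites of NRF1, of the ETS family factor GABP and of YY1, which is why those letters were searched.

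The 250 bases before a RefSeq start (GRCm38.p6) are shown for 4 members that hold these letters, read 5′ to 3′ on the strand of the gene, with matches in capitals. The searched letters were GCATGCGC for NRF1, CCGGAAG for ETS factors and AAGATGGC for YY1, on both strands. Cycs, the gene of cytochrome c, and Ndufaf4, a complex I assembly factor, were chosen because they were among the 5 expressed members of largest spread between the leukaemias. Cox6a1 and Atp5j are examples of the members that hold 2 of the 3 kinds of letters. Others that do were Atp5k, Atp5l, Ndufaf8, Sdhb and Uqcr11.
Cycs, chr6:50566570-50566819, minus strand: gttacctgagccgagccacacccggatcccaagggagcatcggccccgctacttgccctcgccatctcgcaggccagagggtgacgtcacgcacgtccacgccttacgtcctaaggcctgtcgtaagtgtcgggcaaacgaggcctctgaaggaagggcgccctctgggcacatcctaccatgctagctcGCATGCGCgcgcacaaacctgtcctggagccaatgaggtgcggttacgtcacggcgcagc
Ndufaf4, chr4:24897833-24898082, plus strand: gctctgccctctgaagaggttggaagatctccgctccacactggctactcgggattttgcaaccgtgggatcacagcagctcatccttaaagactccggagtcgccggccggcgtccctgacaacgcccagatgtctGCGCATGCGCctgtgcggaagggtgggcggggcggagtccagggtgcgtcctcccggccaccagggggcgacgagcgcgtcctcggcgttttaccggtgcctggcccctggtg
Cox6a1, chr5:115348959-115349208, minus strand: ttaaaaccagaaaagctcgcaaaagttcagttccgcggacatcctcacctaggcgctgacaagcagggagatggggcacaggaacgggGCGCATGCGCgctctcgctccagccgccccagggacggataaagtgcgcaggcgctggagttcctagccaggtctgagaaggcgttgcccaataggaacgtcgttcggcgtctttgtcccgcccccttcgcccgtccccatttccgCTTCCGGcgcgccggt
Atp5j, chr16:84834977-84835226, minus strand: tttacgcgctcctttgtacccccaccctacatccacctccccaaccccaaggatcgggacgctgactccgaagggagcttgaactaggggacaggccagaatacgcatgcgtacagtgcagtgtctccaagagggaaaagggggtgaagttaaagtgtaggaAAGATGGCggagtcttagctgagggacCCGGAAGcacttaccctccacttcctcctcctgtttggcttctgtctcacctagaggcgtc

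In Cycs the NRF1 letters lay 60 to 53 bases before the start. In Ndufaf4 and Cox6a1 a self-complementary stretch held the NRF1 letters on both strands with overlap, between 113 and 104 bases before the start of Ndufaf4 and between 162 and 153 bases before that of Cox6a1. Cox6a1 also held the ETS letters, on the strand opposite to the one shown, 16 to 10 bases before its start. In Atp5j the YY1 letters lay 88 to 81 bases and the ETS letters 61 to 55 bases before the start shown. That window lies inside the deposited Atp5j locus (chr16:84827871-84835625). Another RefSeq start of Atp5j, at the edge where the deposited locus begins on its strand, had no match. The Atp5j locus also overlapped by 502 bases that of Gabpa, the DNA-binding subunit of GABP, which had 15.9, 17.3 and 18.1 FPKM.

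Promoters of 78 of the 95 members were matched by symbol in RefSeq, each window running from 250 bases before to 50 bases after the start. A gene counted if the window of any of its starts held the letters, so genes with more starts had more chances. NRF1 letters were in 13 of the 78 (16.7%), against 3.94% of 17492 protein-coding genes. ETS letters were in 18 (23.1%), against 12.9%, and YY1 letters in 12 (15.4%), against 3.57%. At least 1 of the 3 kinds was in 36 members, and 5 held both NRF1 and ETS letters. The background took protein-coding genes whether expressed here or not, and no comparison matched on expression or promoter type was made. A match describes the letters of the window and no binding was measured here.

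Across all genes, FPKM summed to between 415638 and 430787 per leukaemia, between 9706 and 9992 genes reached 1 FPKM, with library depth in fragments unknown. All 8 B lineage markers were expressed, with summed levels of 8570, 7465 and 5616 FPKM. Spi1 was listed at 11.6, 6.70 and 7.13 FPKM and Spib at 11.8, 14.6 and 9.60 FPKM; these whole-gene values do not show which part of a gene was transcribed, so they do not check the deletion. Bulk RNA was sequenced, so fewer cells of a type and less RNA per cell cannot be told apart.

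Nearly the whole set of subunits was expressed. FPKM of at least 1 was reached in all 3 leukaemias by 87 of the 95 members (91.6%), against 38.1% of all genes. The members' median was 107, 118 and 126 FPKM (mean 117 ± 9.56, SD, n = 3), and the median over all genes with at least 1 FPKM was 13.0, 13.1 and 13.7 FPKM. Together the members held 14739, 16546 and 17008 FPKM, which was 3.42%, 3.98% and 4.01% of all FPKM (mean 3.8 ± 0.332%, SD, n = 3). Both the median and the share were lowest in leukaemia 1. The 8 members that did not reach 1 FPKM in all 3 were Ndufs5 and 7 alternative complex IV genes, described below.

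**Figure D1:**
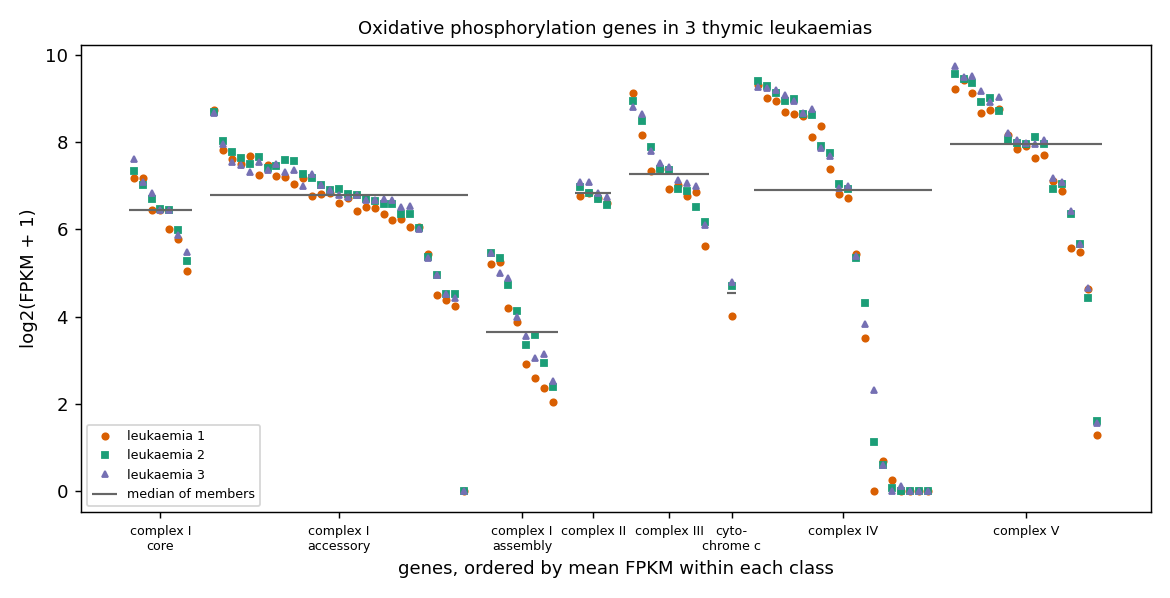
Levels of the 95 members as log2(FPKM + 1) on the y axis, with genes on the x axis ordered by mean FPKM within each complex; each symbol is 1 leukaemia and each line the median of the members of a class. Over all members, complex V has the highest median line of the complexes, complex I assembly factors have the lowest, and the symbols at 0 are Ndufs5 and alternative complex IV genes.

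Complex I takes electrons from NADH, and its 7 nuclear core subunits carry the flavin and the iron-sulphur clusters. All 7 were expressed, with a class median of 86.4 ± 0.700 FPKM (SD, n = 3). Ndufs8, which holds iron-sulphur clusters of the arm leading to ubiquinone, was the highest at 145, 162 and 195 FPKM. Ndufs7, an iron-sulphur subunit near the ubiquinone pocket, had 86.8, 103 and 114 FPKM. Ndufs1, the largest of the iron-sulphur subunits, was the lowest at 32.3, 37.9 and 43.7 FPKM. Core members thus differed by 4.41 times in mean FPKM although the assembled complex holds 1 copy of each. Ndufv2, of the NADH-oxidising module, was the steadiest expressed member of all, at 85.7, 87.1 and 86.4 FPKM, a highest-to-lowest ratio of 1.02.

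The 29 accessory subunits of complex I surround the core, and 28 were expressed, with a class median of 111 ± 6.71 FPKM (SD, n = 3) and a span of 20.6 times in mean FPKM. Ndufa3, a small membrane-arm subunit, was the highest at 423, 412 and 406 FPKM, followed by Ndufb7 at 224, 259 and 249 FPKM and Ndufa7 at 194, 217 and 186 FPKM. Ndufa13, also known as GRIM-19, varied little, at 65.1, 64.7 and 63.1 FPKM. Ndufab1, the mitochondrial acyl carrier protein that also serves fatty acid synthesis, had 21.7, 29.8 and 29.8 FPKM.

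Ndufs5, an accessory subunit of the membrane arm, was listed at 0 in all 3 leukaemias with status OK. The gene BC002163, whose sequence is a near copy of the Ndufs5 coding sequence, had a row over the same place. That row, at chr4:123712710-123718161 (mm10), overlapped Ndufs5 by 5452 bases and held 93.4, 134 and 109 FPKM with status LOWDATA, not OK. The other row of BC002163, at chr16:42955580-42956079, held 148, 206 and 175 FPKM. Summed over Ndufs5 and these rows, the level was 241, 340 and 284 FPKM (mean 288 ± 49.5, SD, n = 3). Ndufs5 is therefore given no level of its own here.

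The 8 complex I assembly factors, which help build the complex and are not part of it, had a class median of 12.3 ± 1.88 FPKM (SD, n = 3), the lowest of the classes. By mean FPKM, Ndufaf8 led with 36.2, 42.7 and 42.7 FPKM, then Ndufaf3 with 37.2, 39.4 and 31.1 FPKM and Ndufaf2, which binds a late intermediate, with 17.4, 25.4 and 28.6 FPKM. Ndufaf5, a protein of methyltransferase fold that modifies Ndufs7 in human cells, was the lowest at 3.12, 4.26 and 4.71 FPKM. Their levels were lowest in leukaemia 1 for 7 of the 8.

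Complex II, succinate dehydrogenase, is shared with the tricarboxylic acid cycle and has only nuclear subunits. Its 4 genes stood at nearly the same level, within 1.24 times of each other in mean FPKM. Sdhb, the iron-sulphur subunit, had 108, 125 and 134 FPKM, and Sdhd, a membrane anchor, had 113, 113 and 134 FPKM. Sdha, the flavoprotein, had 105, 102 and 114 FPKM, and Sdhc, the other anchor, had 96.9, 93.6 and 106 FPKM. All 4 were highest in leukaemia 3.

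Complex III passes electrons from ubiquinol to cytochrome c. Its 9 members were all expressed, with a class median of 155 ± 23.3 FPKM (SD, n = 3) and a span of 7.98 times in mean FPKM. Uqcrh, the hinge protein at the cytochrome c1 side, was the highest at 560, 488 and 447 FPKM, and was highest in leukaemia 1. The small subunits Uqcr10 and Uqcr11 had 286, 360 and 401 FPKM and 162, 237 and 221 FPKM, and both were lowest in leukaemia 1. The redox subunits were closer together, with Cyc1 (cytochrome c1) at 120, 164 and 172 FPKM and the Rieske protein gene Uqcrfs1 at 107, 116 and 133 FPKM. Uqcrq, a ubiquinone-binding small subunit, was the lowest at 48.5, 71.3 and 67.3 FPKM.

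Cycs, which carries electrons between complexes III and IV and also starts apoptosis when released into the cytosol, was below the class medians of the subunits of complexes I to V, at 15.1, 25.1 and 26.8 FPKM (mean 22.3 ± 6.35, SD, n = 3). Its coding sequence has 9 near copies in the annotation, none found by symbol among the deposited rows.

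Complex IV, cytochrome c oxidase, had 20 genes in the rule, counting Ndufa4, which is a complex IV subunit despite its name, and its relative Ndufa4l2. The class median over all 20 was 119 ± 9.76 FPKM (SD, n = 3), and 7 of them were not expressed in all 3 leukaemias. On the log2(FPKM + 1) scale the median was 6.90 over all 20 and 8.26 over those with a mean of at least 1 FPKM. Cox4i1, the general form of the regulatory subunit 4, led with 629, 678 and 613 FPKM. Cox8a followed at 518, 621 and 609 FPKM and Cox6b1, which lies over the cytochrome c site, at 494, 558 and 586 FPKM. Cox6c varied little, at 387, 399 and 404 FPKM. Cox5a, a nuclear subunit that joins early in assembly, had 276, 392 and 431 FPKM and was lowest in leukaemia 1. Cox7a2l, a relative of subunit 7a that helps join complexes III and IV into supercomplexes, was highest in leukaemia 1, at 329, 239 and 233 FPKM.

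Several complex IV subunits have an alternative gene used mainly in another tissue, and the general gene held nearly all of the FPKM of its pair. Cox4i2, a lung form, was listed at 0, 0 and 0.0858 FPKM, or 0.014% of the subunit 4 FPKM in leukaemia 3. The testis forms Cox6b2 and Cox7b2 held 0.10 ± 0.0203% and 0.0725 ± 0.0926% (SD, n = 3) of the FPKM of subunits 6b and 7b. Without leukaemia 1 the mean share of Cox7b2 was 0.0203%. Cox8b, the mouse form of heart and muscle, Cox8c, a testis form, and Ndufa4l2, known as hypoxia-induced, were listed at 0 in all 3 leukaemias beside Cox8a and beside Ndufa4, which had 413, 494 and 543 FPKM.

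Cox7a1, the form of heart, muscle and brown fat, was the exception among the alternative genes. It was listed at 10.3, 18.8 and 13.3 FPKM, beside 167, 215 and 204 FPKM for Cox7a2. It held 5.85%, 8.03% and 6.11% of the subunit 7a FPKM (mean 6.66 ± 1.19%, SD, n = 3), and all 3 of its FPKM values exceeded the upper bound deposited with them. With the midpoint of the interval in place of FPKM the mean share was 4.66%.

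Cox6a2, the heart and muscle form of subunit 6a, was listed at 0, 1.17 and 4.0 FPKM, beside 396, 508 and 495 FPKM for the general form Cox6a1. It held 0.343 ± 0.413% (SD, n = 3) of the FPKM of the pair, and 0.114% without leukaemia 3. Its locus overlaps by 69 bases that of the integrin gene Itgad, at 2.68, 1.08 and 1.14 FPKM. Of the 9 striated muscle markers, Myh2, Myh4 and Mb were listed at 0 in all 3 leukaemias and Ckm was at 0, 1.76 and 0.150 FPKM. The 9 markers summed to 15.0, 15.2 and 5.83 FPKM, mostly Tnnt3 and Pygm, so the sum chiefly follows these genes. The 6 adipocyte markers summed to 1.90, 1.86 and 0.355 FPKM, with Cidea, Ucp1 and Lep at 0 in all 3. The part of other cells in the levels of Cox7a1 and Cox6a2 was not tested.

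**Figure D2:**
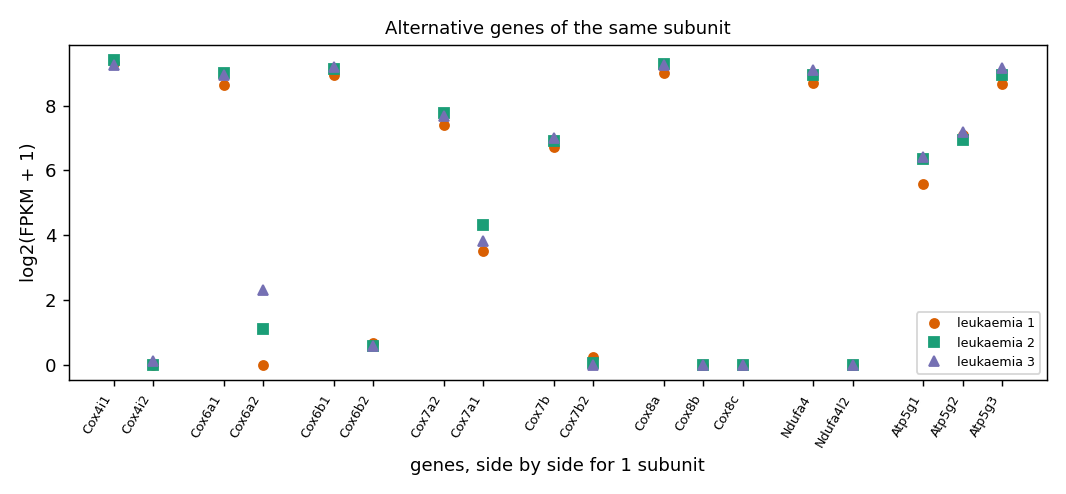
Genes that are alternatives for 1 subunit stand side by side on the x axis, with log2(FPKM + 1) on the y axis and 1 symbol per leukaemia. Of the complex IV alternatives, Cox7a1 lies between 10.3 and 18.8 FPKM and Cox6a2 between 0 and 4.0 FPKM, while the others stay below 1 FPKM; all 3 Atp5g genes are well above that.

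Complex V, the ATP synthase, had 17 genes in the rule and a class median of 248 ± 18.3 FPKM (SD, n = 3), the highest over all members. The order with complex IV turned over members with a mean of at least 1 FPKM, with medians of 7.96 for complex V and 8.26 for complex IV on the log2(FPKM + 1) scale. Atp5b, the catalytic beta subunit, had the highest mean FPKM of all members, at 592, 759 and 859 FPKM. Atp5e, the epsilon subunit of the stalk, had 684, 695 and 722 FPKM, and Atp5k, the small membrane subunit e, had 554, 660 and 737 FPKM. Atp5a1, the alpha subunit that alternates with beta in the catalytic head, had 430, 417 and 524 FPKM, and Atp5c1, the rotating gamma subunit, had 241, 248 and 252 FPKM. The lowest by symbol was Atp5s at 1.42, 2.03 and 1.95 FPKM, with Atp5sl at 23.7, 20.4 and 24.1 FPKM. Both are placed in this class by symbol only and are not among the usual subunits of the ATP synthase. The current symbol of Atp5sl is Dmac2. With both genes the span of the class in mean FPKM was 409 times.

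The membrane ring of complex V is made of subunit c, for which Atp5g1, Atp5g2 and Atp5g3 encode the same mature protein behind different mitochondrial import sequences. Atp5g3 was the main source, at 408, 487 and 572 FPKM, or 70.4 ± 1.29% of the FPKM of the 3 genes (SD, n = 3). Atp5g2 had 137, 121 and 143 FPKM (19.5 ± 3.10%). Atp5g1 had 46.6, 80.8 and 84.4 FPKM (10.1 ± 1.98%), with shares of 7.87%, 11.7% and 10.6%. By FPKM the order of the 3 genes was the same in each leukaemia, with no overlap between their shares. By the midpoint of the deposited interval the order was the same, but Atp5g2 and Atp5g1 were close in leukaemia 2. Their midpoints there were 85.2 and 81.1 FPKM, and their intervals overlapped. Near copies of the coding sequence numbered 4 for Atp5g1 and 2 for Atp5g2, so their levels are uncertain.

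Most members differed little between leukaemias. The median coefficient of variation over the 3 libraries was 10.9% for the 87 expressed members, against 15.2% for the 9300 genes expressed in all 3, and the median highest-to-lowest ratio was 1.24, against 1.34. The ratio was at least 1.5 for 9 of the 87 members and under 1.1 for 11. The largest was 2.20, that of Ndufaf4. The members were also higher than most genes, and no comparison matched on level was made.

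The common shift between leukaemias was a lower level in leukaemia 1. Among the 87 expressed members 65 (74.7%) were lowest in leukaemia 1, against 41.3% of the 9300 genes. By comparison 10 (11.5%) were lowest in leukaemia 2, against 31.4%, and 12 (13.8%) in leukaemia 3, against 27.3%. Only 9 members (10.3%) were highest in leukaemia 1, against 39.5% of genes. By class, the lowest value was in leukaemia 1 for 6 of 7 core and 20 of 28 accessory subunits of complex I, 2 of 4 genes of complex II and 6 of 9 of complex III. The same held for 10 of 13 expressed genes of complex IV and 13 of 17 of complex V.

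The size of the shift was small. On the log2(FPKM + 1) scale, which understates differences of low genes, the median difference over 88 members (those with at least 1 FPKM in either leukaemia) was -0.22 for leukaemia 1 minus 2 and -0.23 for leukaemia 1 minus 3. The medians over all genes were 0.02 and -0.01. These pairs share leukaemia 1 and are not independent. For leukaemia 2 minus 3 the median was -0.02 for members and -0.06 for all genes, and the members' median turned positive under both other scalings, to 0.01 with FPKM rescaled to the same total in each leukaemia (TPM) and to 0.03 with median ratios. The direction against leukaemia 1 was the same under each scaling: 71, 76 and 71 of the 88 members were lower in leukaemia 1 than in 2 as deposited, as TPM and by median ratios, and 74, 74 and 71 were lower than in leukaemia 3.

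**Figure D3:**
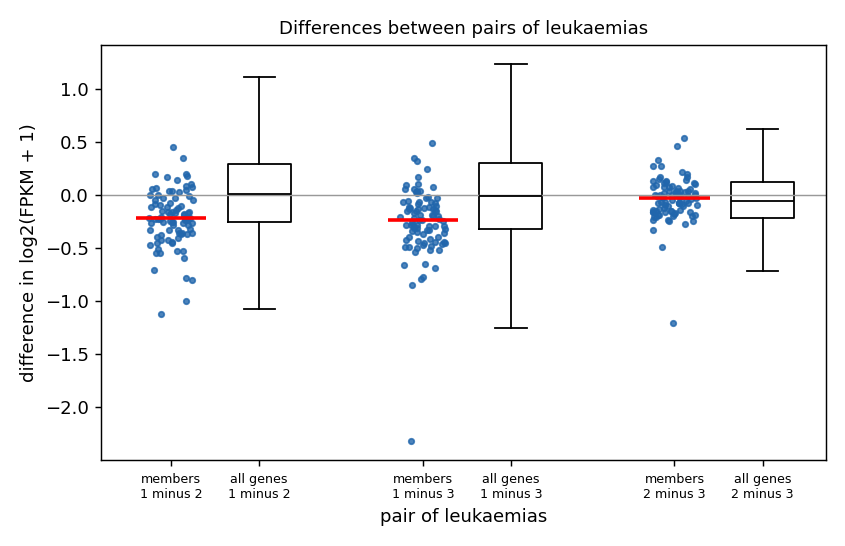
Differences in log2(FPKM + 1) on the y axis for each pair of leukaemias on the x axis; points are the 88 members with a red line at their median, and boxes show the quartiles and median of all genes tested, with whiskers to the furthest gene within 1.5 box heights. The members' median lies at -0.22 and -0.23 in the pairs with leukaemia 1 and at -0.02 for leukaemia 2 minus 3; the lowest point is Cox6a2 at -2.32.

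Few members differed by much. A gene was called where the difference was at least 1 on the log2(FPKM + 1) scale, FPKM reached 1 in either leukaemia and the deposited 95% intervals did not overlap; with 1 library on each side there is no replicate check and no p-value. No member was called higher in any pair, against 5.56% of all genes for leukaemia 1 minus 2, 6.75% for 1 minus 3 and 2.96% for 2 minus 3. In each pair 1 of 88 members was called lower, against 2.6%, 3.22% and 1.72% of all genes. That member was Cox6a2 each time, with differences of -1.11, -2.32 and -1.21. In the pairs with leukaemia 1, where it was listed at 0, it passed the filter only through the other leukaemia and so had to differ. It could not be called in any pair when 5 FPKM was required, as its highest value was 4.0 FPKM.

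At a difference of at least 0.5, 11 members (12.5%) were lower in leukaemia 1 than in leukaemia 2, against 11.1% of all genes, and 10 (11.4%) were lower than in leukaemia 3, against 15.5%. These shares were near or below the background. Higher in leukaemia 1 were 0 members in either pair, against 15.3% and 16.8% of genes. For leukaemia 2 minus 3, Ndufaf4 was higher and Cox6a2 lower, 1 member each, against 7.61% and 6.55% of genes. Those lower than in leukaemia 2 were Atp5g1, Cox5a, Cox6a2, Cox7a1, Cycs, Ndufa1, Ndufaf2, Ndufaf4, Ndufaf6, Uqcr11 and Uqcrq. Those lower than in leukaemia 3 were Atp5b, Atp5g1, Cox5a, Cox6a2, Cyc1, Cycs, Ndufaf2, Ndufaf6, Ndufaf7 and Ndufc2. The comparisons share leukaemia 1.

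Atp5g1 had 46.6 FPKM in leukaemia 1 and 80.8 and 84.4 FPKM in leukaemias 2 and 3, differences of -0.78 and -0.84. Cycs had 15.1, 25.1 and 26.8 FPKM, with differences of -0.70 and -0.79. Ndufaf6, another complex I assembly factor, had 4.14, 6.72 and 7.79 FPKM, with differences of -0.59 and -0.77. For these genes leukaemias 2 and 3 stood close together above leukaemia 1.

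Ndufaf4 was instead highest in leukaemia 2, at 5.01, 11 and 7.23 FPKM, with differences of -0.998 for leukaemia 1 minus 2, and 0.54 for leukaemia 2 minus 3. It was just short of a call for leukaemia 1 minus 2, and was called lower there with a pseudocount of 0.1 and under both other scalings. Cox7a1 was also highest in leukaemia 2, at 10.3, 18.8 and 13.3 FPKM, with differences of -0.80 and 0.47. Of the 9 members highest in leukaemia 1, the largest highest-to-lowest ratios were 1.41 for Cox7a2l, 1.28 for Ndufa6 and 1.25 for Uqcrh. Ndufa6, an accessory subunit of the complex I matrix arm, had 203, 179 and 159 FPKM.

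**Figure D4:**
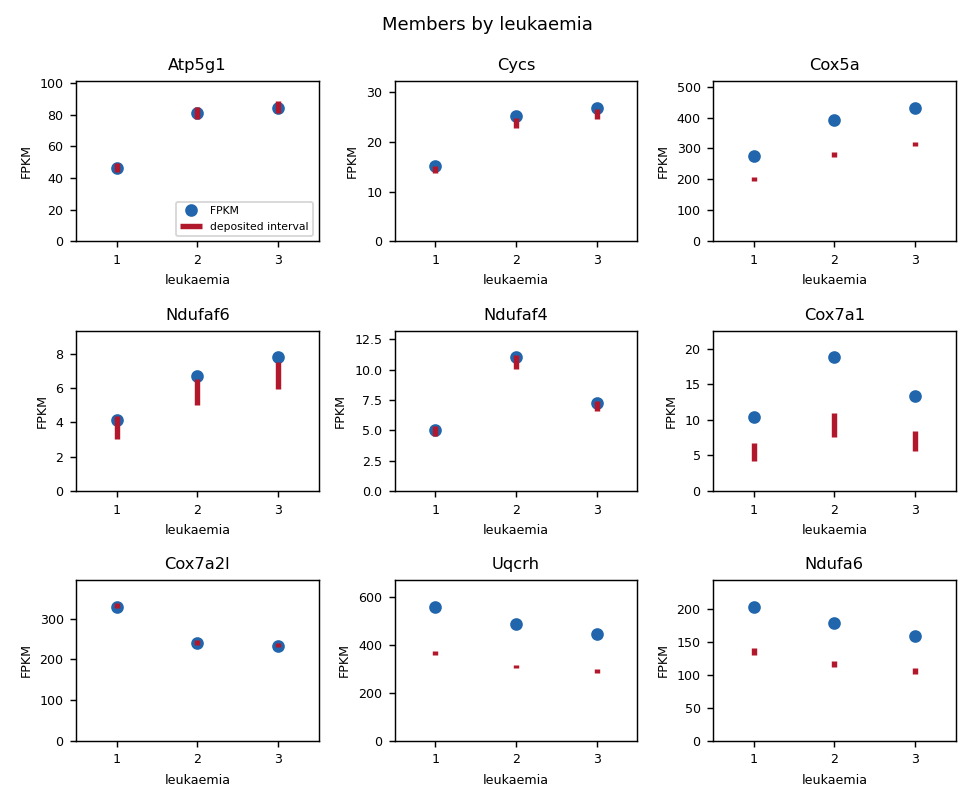
FPKM on the y axis (from 0, linear) against leukaemia on the x axis for 9 members, with the deposited 95% interval as a red bar. The first 6 are lowest in leukaemia 1 and the last 3 are highest there. For Cox5a, Cox7a1, Uqcrh and Ndufa6 the FPKM lies above its own interval in each leukaemia. For Cycs and Ndufaf6 it lies slightly above in leukaemias 2 and 3.

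Marker lists of other cells and of proliferation also differed between the leukaemias. The 9 T cell markers summed to 355, 151 and 110 FPKM, of which Lat alone held 169, 113 and 67.8 FPKM. Their median was 20.1, 3.86 and 5.43 FPKM. All but Lat, 8 of 9, were called higher in leukaemia 1 than in 2, and 9 of 9 higher than in 3, against 5.56% and 6.75% of all genes. Cd247 was listed at 0 in leukaemias 2 and 3. All 7 proliferation genes were lowest in leukaemia 1, with sums of 570, 878 and 1125 FPKM. Of these, Pcna, the DNA polymerase clamp, was called lower there than in leukaemia 3, against 3.22% of all genes. The 8 myeloid markers summed to 374, 301 and 99.8 FPKM and the 6 erythroid markers to 143, 210 and 26.3 FPKM, both lowest in leukaemia 3. The part of these lists in the lower level of the members in leukaemia 1 was not tested.

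The coding sequences of many members have near copies elsewhere in the genome, which can take or share fragments. Of the 95 members, 35 had at least 1 near copy in the GENCODE annotation (at least 90% identical over at least 80% of the coding sequence), and 78 of the 82 copies were pseudogenes. Atp5l, subunit g of the ATP synthase, had the most, 14, and stood at 43.9, 49.6 and 50.03 FPKM. Only 3 members had a copy with its own row under the GENCODE symbol: Ndufs5, Uqcr10, whose copy was listed at 0, and Cox7c. Copies were matched by symbol and not by place, so a row under another name would be missed. Levels of members with copies are uncertain for this reason. The loci of 16 members overlapped another row, and whether fragments were assigned by strand is not stated.

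Cox7c, a small complex IV subunit, was listed at 42.0, 39.9 and 40.8 FPKM. Its copy Gm12338 (chr11:75599646-75600231, mm10) held more, at 208, 219 and 212 FPKM, and its copy Gm10012 held 24.3, 25.6 and 24.6 FPKM. Summed over the 3 rows, the level was 274, 284 and 277 FPKM (mean 278 ± 5.35, SD, n = 3), which was steady across the leukaemias as was Cox7c alone.

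For most members the deposited FPKM and its interval were not on 1 scale. FPKM lay above its own upper 95% bound for 62, 64 and 64 members, or 71.3%, 72.7% and 72.7% of those with at least 1 FPKM, against 27.1%, 28.1% and 28.4% of all such genes. It was so in all 3 leukaemias for 62 of the 87 expressed members. Short transcripts were the furthest above: the median ratio of FPKM to upper bound was 1.501 for 28 members with a principal transcript under 700 bases, of which 25 lay above in all 3, and 1.103 for 59 longer ones, of which 37 did. Across the 87 members, which share the same 3 libraries, Spearman's rho between the ratio and transcript length was -0.62. These lengths are of GENCODE vM21 principal transcripts, and the gene models behind the deposited FPKM can differ from them. For Atp5g1 the length used, 4715 bases, was longer than its whole deposited locus (chr11:96072793-96075694). The split and rho are therefore approximate.

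The furthest above were Atp5k at 2.64 times its upper bound, Ndufa3 at 2.102 times and Atp5e at 1.82 times. By the interval's midpoint, Atp5b, Cox4i1, Atp5g3 and Atp5a1 were the 4 highest members, Atp5e was the sixth, and Atp5k ranked 17 and Ndufa3 20. The order of the small subunits above therefore depends on which deposited value is read. Atp5b was first by the mean of either value, but not in each leukaemia: in leukaemia 1 it stood at 592 FPKM, below Atp5e at 684 and Cox4i1 at 629 FPKM, and by midpoint it was below Cox4i1 in leukaemias 1 and 2. The intervals themselves were narrow, with a median half-width of 4.04%, 3.81% and 3.78% of the midpoint, and cover the counting and assignment of fragments only.

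**Figure D5:**
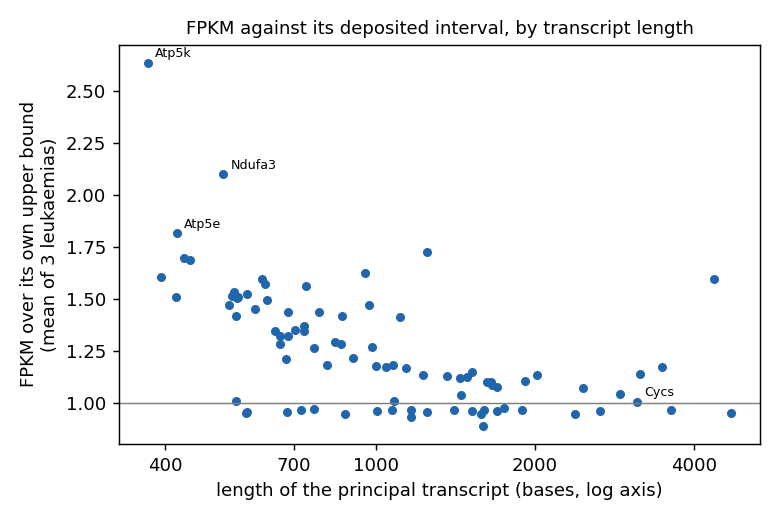
Mean ratio of FPKM to its own upper bound over the 3 leukaemias on the y axis, against the length of the principal transcript in bases on a log x axis, for the 87 expressed members; the line marks a ratio of 1. Members under 700 bases have a median ratio of 1.501, longer ones 1.103, and Atp5k, Ndufa3 and Atp5e are the 3 highest. Lengths are from GENCODE and can differ from those of the gene models behind the deposited FPKM.

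Other genes of the pathway were given from lists by role. Of 16 complex IV assembly factors 15 were expressed, with the copper chaperone Cox17 the highest at 136, 213 and 177 FPKM and Sco2, another copper protein, listed at 0. Of 18 assembly factors of the other complexes 17 were expressed, with the complex III factor Uqcc2 the highest at 107, 133 and 119 FPKM and the complex III factor Ttc19 listed at 0. Overlapping rows and near copies were looked up for members only, so the values of 0 for Sco2 and Ttc19 were not checked for them. No gene of either list was called in any pair, against 1.72% to 6.75% of all genes per pair and direction.

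All 8 regulators and carriers that serve ATP synthesis were expressed and none was called, against 1.72% to 6.75% of all genes per pair and direction. Ucp2, a mitochondrial inner membrane carrier of lymphoid and myeloid cells, was the highest at 2534, 2397 and 2316 FPKM, and thus above every member. Atpif1, the inhibitor protein of the ATP synthase, had the lowest mean, at 43.1, 42.0 and 44.2 FPKM. Slc25a5, an ADP/ATP carrier, had 409, 599 and 693 FPKM.

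All 13 tricarboxylic acid cycle genes were expressed, led by malate dehydrogenase Mdh2 at 196, 268 and 261 FPKM, with the succinyl-CoA ligase subunit Suclg2 the lowest at 9.09, 8.50 and 13.4 FPKM. Of the 13, 1 was called, against 3.22% of all genes called lower in that pair. Idh3a, the catalytic subunit of NAD-linked isocitrate dehydrogenase, had 21.7, 42.2 and 44.8 FPKM and was lower in leukaemia 1 than in 3 by a difference of -1.01. The other 12 were not called in any pair.

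Of 15 regulators of mitochondrial biogenesis 14 were expressed; the coactivator Ppargc1a was the lowest, at under 1 FPKM in each leukaemia. Yy1 had the highest mean, at 61.9, 55.2 and 60.3 FPKM, and Nrf1 had 19.3, 20.3 and 24.1 FPKM. Pprc1, a coactivator related to Ppargc1a, had 6.24, 10.9 and 14.2 FPKM. It was the only one called, lower in leukaemia 1 than in 3 by -1.07, against 3.22% of all genes called lower in that pair. Myc, which drives growth genes including mitochondrial ones, had 35.8, 67.0 and 63.9 FPKM, with differences of -0.89 and -0.82 that were not called.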

How the data were processed

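RNA was sequenced from 3 thymic leukaemias. The submitters' processing notes name mm10, TopHat2 2.0.9, Trim Galore 0.2.8.1, Cuffdiff 2.1.1 and Cufflinks, without settings. Each leukaemia had 1 deposited table of FPKM by gene with 95% bounds and a status, per the file headers. FPKM holds no counts, so no count test was run.

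Of 25020 rows per table, 26 whose symbol had become a date were left out, and loci were summed for 286 symbols, none of them members. All 95 members had status OK. Values were log2(FPKM + 1); pairs were compared as described, over all genes, without p-values. Named were the 3 highest members and the lowest of each class, called members, alternative isoform genes, members listed at 0, the 5 of largest and smallest spread, and the 3 furthest above their bound; others were chosen after their values were seen. A gene that this rule names is not reported here. Members, lists and tests were chosen with earlier results of these data known. Near copies were found with BLAST 2.17.0 in GENCODE vM21 transcripts, and promoters came from RefSeq (GRCm38.p6). Scripts were tested on simulated data. Alternatives were other pseudocounts, filters, scalings, interval midpoints, status OK only, the locus of highest FPKM, means, and each leukaemia left out. Python 3.11.15, numpy 2.4.6, pandas 2.3.3, scipy 1.17.1 and matplotlib 3.10.9 were used.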

Additional observations from a re-analysis of the deposited data

How the results depend on the processing

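Of 221 values under alternatives, 174 kept their direction and moved by less than the spread or within 1.5 times the count, 45 moved further and 2 changed sign. The sign changes were those of the median member difference of leukaemia 2 minus 3, at 0.01 as TPM (0.00668 with filters applied to TPM) and 0.03 (0.0311) by median ratios. No paired analysis was possible because the libraries form 1 group and share no replicate numbers.

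With interval midpoints, member medians were 6.43, 6.59 and 6.62 on the log2(FPKM + 1) scale and sums 11168, 12267 and 12867 FPKM. Class medians were 6.27 and 6.42 for core and accessory subunits of complex I, and 6.65, 6.96, 6.47 and 7.62 for complexes II, III, IV and V. Shares were 0.162% for Cox6b2, 4.66% for Cox7a1, 0.00573% for Ndufa4l2, and 25.1% for Atp5g1 with Atp5g2. As TPM, a larger unit by construction, member medians were 7.97, 8.15 and 8.23. TPM class medians were 7.68, 8.03 and 4.85 for complex I core, accessory and assembly genes, 8.06, 8.51, 8.13 and 9.19 for complexes II, III, IV and V, and 5.70 for Cycs. As means over members, levels were 6.09, 6.29 and 6.32, with 6.44 and 6.502 for core and accessory subunits, 5.16 for complex IV and 7.45 for complex V. The core median was 6.44 with a pseudocount of 0.1, and that of complex IV was 8.26 over members with mean FPKM of at least 1.

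Members called lower for leukaemia 1 minus 2 numbered 2 with a pseudocount of 0.1, as TPM or by median ratios. With at least 5 FPKM, 0 were called in each pair, a filter that Cox6a2, at most 4.0 FPKM, could not pass. At a difference of at least 0.5, 11 and 10 were lower in leukaemia 1 and 1 was higher for leukaemia 2 minus 3. The causes were not tested. Leaving out each leukaemia in turn gave mean member medians of 6.83 to 6.94. The shares of the lowest isoform genes rested on single leukaemias, at 0.114 to 0.515% for Cox6a2 (lowest without leukaemia 3), 0.0203 to 0.109% for Cox7b2 (lowest without leukaemia 1) and 0 to 0.00699% for Cox4i2 (0 without leukaemia 3). The number of fragments is unknown, so no counting floor could be given, and 3 libraries without controls limit every comparison to these leukaemias.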
